A study of Mus musculus with 10 samples.

Results

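The transcripts of 32D mouse myeloblasts at 0 h were described from 2 of the 10 arrays of an actinomycin D time course, the array of each independent experiment that its labels place at time 0. Some labels give the line as 32D myeloblasts for experiment 1 and as 32Dcl3 myeloblasts for experiment 2. The sample titles name 32D cells in both, and the study's text names 32Dcl3. The line grows in interleukin-3 (IL-3) and matures into neutrophils in granulocyte colony-stimulating factor (G-CSF), and 32Dcl3 is a clone of 32D. Both cultures had been washed free of IL-3 and placed in medium without it, and the other 8 arrays come from the same 2 cultures after actinomycin D at 10 µg/ml, at 2 h and 4 h with IL-3 at 1 ng/ml (high IL-3) or at 0.01 ng/ml (low IL-3). The labels and the study's text differ on whether the 0 h cells were taken just before the transcription inhibitor or, after a short exposure to it, when the cytokine was added back. Thus 0 h stands for cells recently deprived of IL-3, and in bulk RNA a transcript present in fewer cells cannot be told apart from less of it in each cell.

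Myeloblasts are the earliest recognizable cells of the granulocyte series. At this stage, and in the promyelocytes that follow, cells fill their primary (azurophil) granules with myeloperoxidase and with a family of small serine proteases, while the proteins of secondary granules, such as lactoferrin, and of tertiary granules are made later. The genes of the primary granule proteins are switched on together in early myeloid cells by a small set of transcription factors, among them the ETS family member PU.1, C/EBP alpha and MYB.

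The promoters of the 4 genes that mark the label are printed because the arrays separate them, although early myeloid cells are known to use them together. Each is the 250 bases before the RefSeq transcription start, 5′ to 3′, on assembly GRCm38.p6. Capitals mark AGGAAGT, a sequence of the kind bound by ETS factors, which was chosen after the sequences had been seen and was searched on both strands (ACTTCCT on the other).
Mpo, chr11:87793534-87793783, plus strand: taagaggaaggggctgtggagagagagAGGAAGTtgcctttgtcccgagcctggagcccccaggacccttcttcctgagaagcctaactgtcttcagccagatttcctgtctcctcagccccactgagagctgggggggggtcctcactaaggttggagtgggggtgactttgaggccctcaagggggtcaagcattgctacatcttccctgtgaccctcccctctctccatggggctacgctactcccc
Prtn3, chr10:79879417-79879666, plus strand: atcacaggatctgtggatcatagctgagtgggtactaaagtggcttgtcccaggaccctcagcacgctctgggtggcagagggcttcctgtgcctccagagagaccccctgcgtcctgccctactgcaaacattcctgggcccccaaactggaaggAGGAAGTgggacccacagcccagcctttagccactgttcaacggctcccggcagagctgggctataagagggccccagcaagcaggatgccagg
Ctsg, chr14:56102575-56102824, minus strand: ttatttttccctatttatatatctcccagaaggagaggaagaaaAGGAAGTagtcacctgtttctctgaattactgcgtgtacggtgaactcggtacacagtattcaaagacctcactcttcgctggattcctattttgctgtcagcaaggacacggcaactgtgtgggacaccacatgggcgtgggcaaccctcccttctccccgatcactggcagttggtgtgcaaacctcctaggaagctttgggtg
Elane, chr10:79886062-79886311, plus strand: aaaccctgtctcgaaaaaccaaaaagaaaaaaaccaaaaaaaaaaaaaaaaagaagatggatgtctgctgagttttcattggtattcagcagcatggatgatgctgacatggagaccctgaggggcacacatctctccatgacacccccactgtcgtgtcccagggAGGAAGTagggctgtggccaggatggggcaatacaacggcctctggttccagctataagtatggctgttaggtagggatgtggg
Each window held the motif once, starting 223 bases before the start in Mpo, 94 in Prtn3, 206 in Ctsg and 84 in Elane, and 7.69% of the 32851 RefSeq promoter windows of the same length held it. A match is a stretch of letters and does not show that a factor was bound.

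The arrays (Affymetrix mouse 430A 2.0) report for each of 22690 probe sets an intensity on a linear scale in arbitrary units, which depends on the probes as well as on the amount of RNA. For the 1717 genes with 2 or more probe sets at a mean of at least 200, the brightest and the dimmest differed by a median of 1.80-fold, and by over 2-fold in 43.3% of genes. Intensities are therefore described for each gene and counted against a common limit, and no gene is called more abundant than another. Values are given for experiment 1 and then experiment 2, with 1 array in each. The median intensity was 70.6 and 58.7, and the 75th percentile 499.8 and 399.3. A gene, represented by its brightest probe set, was counted as at the limit when both arrays reached 200, as 4707 of 12394 genes (38.0%) did. Of 61 genes of liver, muscle, brain and other tissues, 1 did so and 53 had a mean below 50. A low value does not show that a transcript was missing, since Rpl39, a protein of every ribosome, read 4.82 and 1.01, and Cox7c, a subunit of cytochrome oxidase, read 70.4 and 22.6.

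The defining markers of the label were at the limit in 3 of 4 cases. Myeloperoxidase (Mpo) had an intensity of 3409 in experiment 1 and 509 in experiment 2 (1959 ± 2051, SD, n = 2). Proteinase 3 (Prtn3) had 3178 and 1453 (2316 ± 1220.3, SD, n = 2). Cathepsin G (Ctsg) had 4455 and 3465 (3960.1 ± 699.8, SD, n = 2). These 3 markers were thus well above the limit in both cultures, and all were lower in experiment 2, Ctsg by the least and Mpo by the most. Elane, which encodes neutrophil elastase and is measured by 1 probe set, read 31.3 and 6.98, within the range of the genes of other tissues in both cultures, and so went against the label.

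Of the 10 measured genes of primary granules, 8 were at the limit in both cultures, a share of 80.0% against 38.0% of all genes. Srgn, the proteoglycan serglycin that packs granule proteases, read 6215 and 6381. Ctsc, the dipeptidase that activates the granule serine proteases, read 4337 and 3863. Serpinb1a, an inhibitor of these proteases, read 2783 and 3766. The readings of these 3 genes differed by less than 2-fold between the cultures. Gusb, a lysosomal glucuronidase, did the same at 1888 and 1715. Ms4a3, a membrane protein of granulocyte and monocyte progenitors, went the other way from Mpo, at 376 and 1242. Lyz2, lysozyme of granulocytes and macrophages, was at the limit in experiment 1 alone, at 449 and 174. In the peroxidase gene cluster on chromosome 11, Epx, the peroxidase of eosinophils, read 10.8 and 153 and so was the reverse of Mpo, while Lpo, lactoperoxidase, was at the floor value of 1 in both. In the chymase and granzyme cluster that holds Ctsg, the other 12 measured genes stayed below 200 in both cultures.

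Of the later granule and neutrophil genes, 6 of 18 (33.3%) were at the limit, a share close to the 38.0% of all genes. Pglyrp1, a peptidoglycan-binding granule protein, read 2429 and 2386, and both cultures were alike. Lcn2, the secondary granule protein lipocalin 2, read 1657 and 1474, again alike in both. S100a8 read 1597 and 472, and S100a9, with which it forms calprotectin, read 2286 and 670.4. Both calprotectin genes were over 2-fold higher in experiment 1. Padi4, the deiminase that citrullinates histones in neutrophils, read 2037 and 1068. Slpi, a secreted inhibitor of elastase, read 645 and 783. Ltf, lactoferrin, read 205 and 43.4, so that only experiment 1 reached the limit, and Ngp, neutrophilic granule protein, did likewise at 214 and 101. The cathelicidin gene Camp (1 and 1.28), the gelatinase gene Mmp9 (36.0 and 51.3) and the collagenase gene Mmp8 (8.30 and 24.5) were below it in both cultures.

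**Figure D1:**
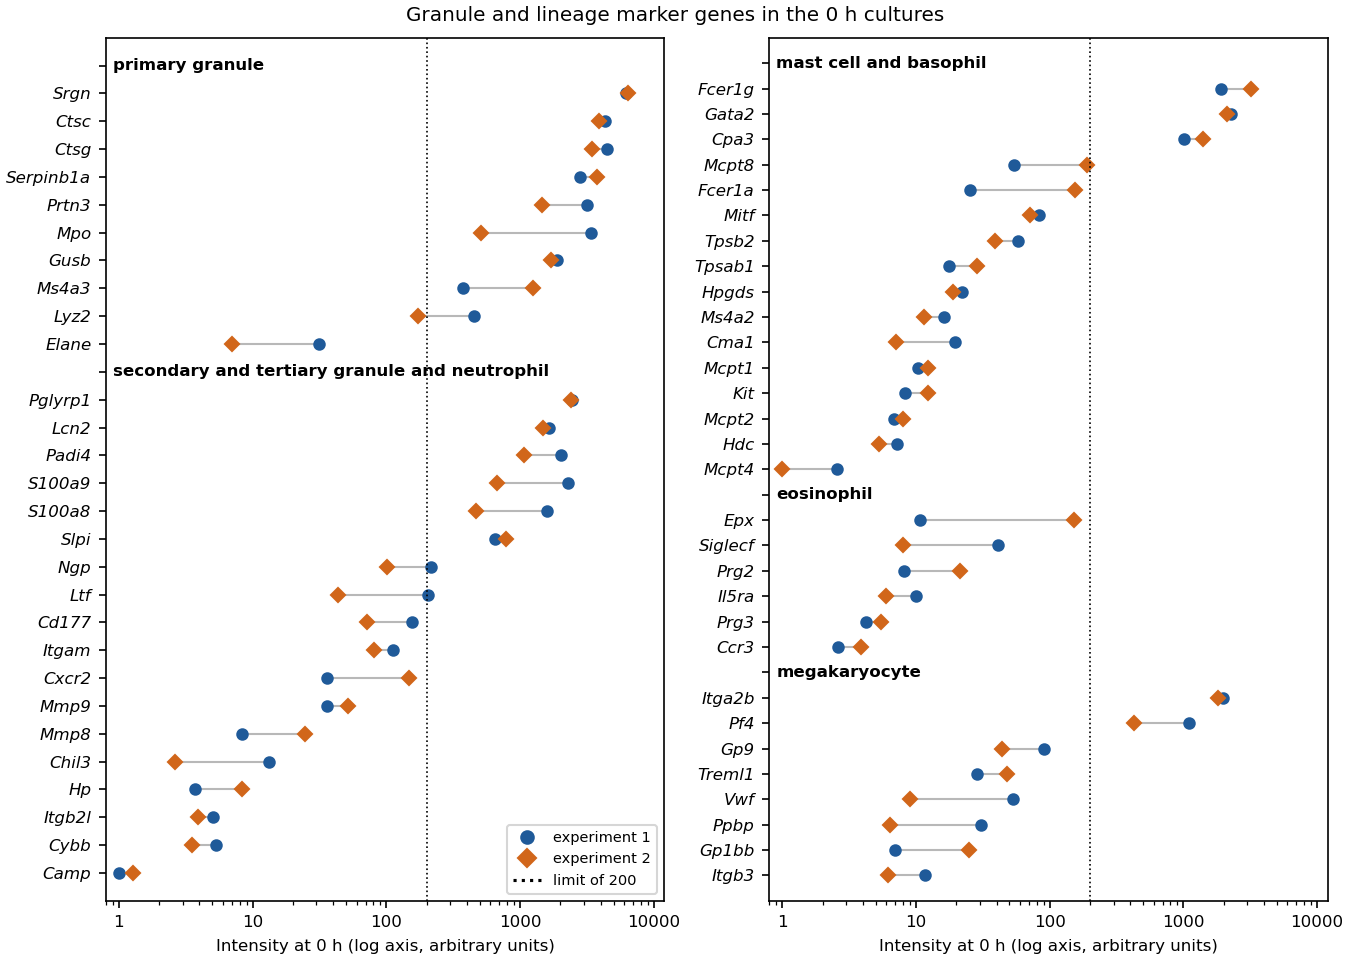
Intensity (log axis, arbitrary units) of granule genes on the left and of mast cell and basophil, eosinophil and megakaryocyte markers on the right, with 1 circle for experiment 1, 1 diamond for experiment 2 and a dotted line at 200. Mpo read 3409 and 509, Ms4a3 376 and 1242, and Elane 31.3 and 6.98.

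Markers of other blood lineages were at the limit one by one rather than as sets. In each of these lists, and in the stem and progenitor list (26.7%), the share was below the 38.0% of all genes. Among mast cell and basophil genes, 3 of 16 were at the limit: Fcer1g, the signalling chain of Fc receptors, at 1899.9 and 3224, Gata2, a factor of progenitors and mast cells, at 2260.0 and 2118, and Cpa3, mast cell carboxypeptidase, at 1005 and 1412. Fcer1a, the alpha chain of the high-affinity IgE receptor, read 25.4 and 155. Mcpt8, a basophil protease, read 54.5 and 188. Both lay below the limit and were higher in experiment 2. Kit, the receptor for stem cell factor (8.25 and 12.2), the tryptase gene Tpsab1 (17.7 and 28.6) and Hdc, which makes histamine (7.16 and 5.31), stayed low. None of 6 eosinophil genes was at the limit, and Epx alone was above 50 in either culture.

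Among megakaryocyte genes, Itga2b, the platelet integrin alpha IIb, read 1972 and 1823 and Pf4, platelet factor 4, read 1094 and 426, and the other 6 were below 100 in both cultures. The erythroid list had 1 of 10 genes at the limit, Hemgn, a nuclear protein of early blood cells, at 1261 and 763. The globin gene Hba-a1 read 1 and 1.31, and Gata1, the central erythroid and megakaryocytic factor, 61.3 and 81.0. Thus the erythroid list rested on 1 gene and the megakaryocyte list on 2.

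Monocyte, macrophage and dendritic cell genes were at the limit in 4 of 21 cases. Adgre1, the F4/80 antigen, read 2889 and 3281. Cd74, the invariant chain, read 879 and 675, whereas H2-Ab1 and H2-Aa, which encode the class II chains it binds, were below 20 in both. Fcgr1, a high-affinity IgG receptor, read 397 and 598. The receptor Csf1r (43.9 and 70.4), Cd14 (11.1 and 4.13) and Cx3cr1 (18.6 and 1.62) stayed below 100. In the B cell list 1 of 13 genes, Ighm, the heavy chain of IgM, was at the limit (549 and 455), while Cd79a and Pax5 were below 20. None of 16 T and NK cell genes reached it.

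In the stem and progenitor list, 4 of 15 genes were at the limit, all of them for nuclear regulators or a surface receptor: Tal1 (1410.5 and 1193), Lmo2 (1237 and 1018), Bmi1 (1045 and 751) and Slamf1 (270.4 and 256). The surface antigen gene Cd34 read 4.52 and 3.31 and Flt3 read 13.7 and 12.6. Both were at the level of the genes of other tissues.

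**Figure D2:**
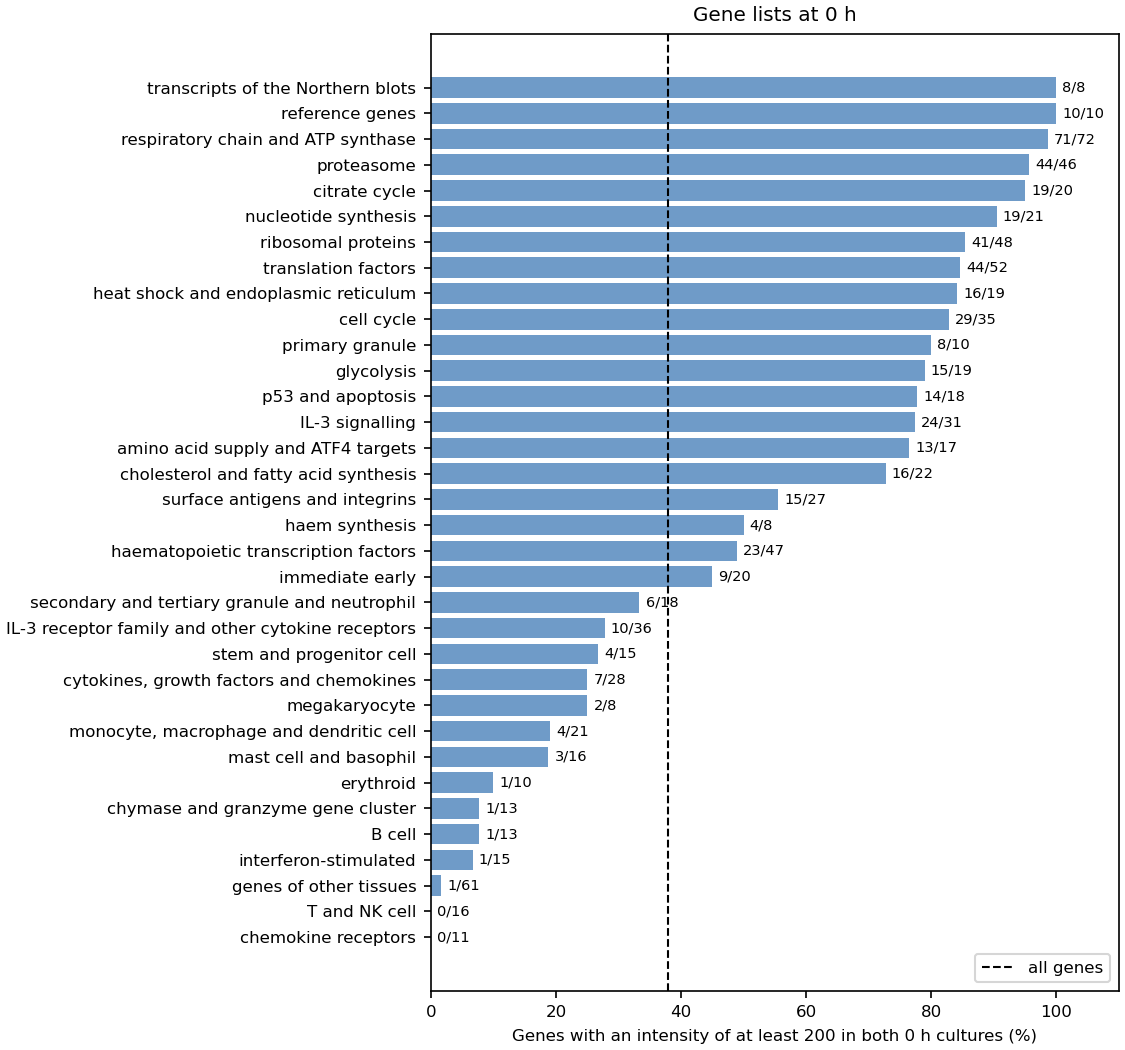
Percentage of measured genes with an intensity of at least 200 in both 0 h cultures for each list of 8 or more genes, with counts at the bar ends and the 38.0% of all genes as a dashed line. The Northern blot transcripts (8 of 8), the reference genes (10 of 10) and the respiratory chain (71 of 72) stand at the top, and chemokine receptors (0 of 11) and T and NK cell genes (0 of 16) at the bottom.

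IL-3 acts through a specific alpha chain and a shared beta chain, which in the mouse exists in a common and an IL-3-specific form, and signals through JAK2, STAT5, PI3-kinase and the RAS pathway. Il3ra, the alpha chain, read 331 and 272. Csf2rb, the common beta chain, read 569.8 and 765. Csf2rb2, the IL-3-specific beta chain, read 1012 and 1359. All 3 receptor chains were at the limit in both cultures. Near-identical sequence is shared by the beta chains, so their probe sets may not separate them. Csf3r, the G-CSF receptor, read 566 and 400.1, while Csf2ra, the alpha chain for GM-CSF, read 17.3 and 9.03. In all, 10 of 36 cytokine receptor genes (27.8%) were at the limit, against 38.0% of all genes, and 4 were with a limit of 500. The 10 included Il4ra at 325 and 1054, Ifnar2 at 1126 and 808 and Il2ra at 372 and 349.9. None of 11 chemokine receptor genes was at the limit. The receptor Cxcr4, which holds progenitors in the marrow, read 202 and 94.8, and Cxcr2, which guides neutrophils, 36.0 and 148.

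Of the genes that carry the IL-3 signal, 24 of 31 (77.4%) were at the limit, against 38.0% of all genes. Jak1 read 2528 and 2501 and Jak2 1749.7 and 813. Stat5a read 466 and 274 and Stat5b 478 and 383, and both differed by less than 2-fold. Cish, a feedback inhibitor and a direct STAT5 target, read 3177 and 2856. Pim1, a survival kinase induced by STAT5, read 1683 and 1882, and its relative Pim2 392 and 1673. Pim1 was alike in the cultures and Pim2 was not. Pik3cg and Pik3cd, the leukocyte PI3-kinase catalytic subunits, read 2959.9 and 3101 and 982 and 1584, respectively. The inhibitor Socs3 read 723 and 229.5, and the RAS pathway adaptor Shc1 194 and 685, in opposite directions. The ligand gene Il3 itself read 9.03 and 3.70, at the level of the genes of other tissues.

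All 8 transcripts that the study followed on Northern blots, chosen by the study in part on these arrays, were at the limit. Cdkn1a, the cyclin-dependent kinase inhibitor p21, read 2999 and 2661. Myb read 2748 and 2133. Cited2, a transcriptional coregulator, read 4803 and 4449. Zfp36l1 and Zfp36l2, which bind AU-rich elements and promote mRNA decay, read 996 and 971 and 3455 and 2939.6, respectively. The cytokine gene Il6 read 787 and 994. None of the 8 was 2-fold apart between the cultures in its brightest probe set, although 2 dimmer probe sets of Pik3cd were (1.24 and 1.25 higher in experiment 2 on the log2 scale).

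Among 47 haematopoietic transcription factor genes, 23 (48.9%) were at the limit, against 38.0% of all genes. With a limit of 500, 14 of the 47 passed, and 2938 of all 12394 genes. Lyl1, a factor of early progenitors, read 2645 and 3058, Cbfb, the partner of RUNX factors, 3232 and 2369, and Nfe2, known from megakaryocytes and red cells, 2108 and 1978. Other factors of early progenitors were not at the limit, among them Runx1 (102 and 138), Erg (47.9 and 55.5), Meis1 (55.3 and 20.5) and Hoxa9 (23.5 and 37.5). Factors of the granulocytic lineage were also at the limit: Spi1, which encodes PU.1, at 500.2 and 434, Gfi1 at 945 and 491, Cebpb at 1454 and 1289.6 and Cebpa at 248 and 821. Of these, Spi1 and Cebpb differed little, Gfi1 was lower in experiment 2, and Cebpa was over 3-fold higher there. Myc read 1463 and 1064. Lymphoid factors (Pax5, Ebf1 and Gata3) and the monocytic factor Klf4 were below 10 in both cultures. Irf8, which favours monocytes over granulocytes, read 81.4 and 83.1.

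Proliferation genes were at the limit in 29 of 35 cases (82.9%), against 38.0% of all genes. Pcna, the sliding clamp of DNA replication, read 6164 and 5301. Cdk1, the mitotic kinase, read 3985 and 3356, and Top2a, the topoisomerase of dividing cells, 4288 and 3409. Mki67, the Ki-67 antigen, read 2669 and 1736, and all 4 were within 2-fold in the cultures. Ccnd2 (2817 and 2285) and Ccnd3 (2232 and 2447) were the D-type cyclins at the limit, and Ccnd1 (65.7 and 28.7) was not. The inhibitors Cdkn2a (4.12 and 7.20) and Cdkn2b (3.34 and 4.80) were near the floor of the array, while Cdkn1b, p27, read 594 and 257. Among apoptosis genes 14 of 18 (77.8%, against 38.0% of all genes) were at the limit. They were led by Mcl1, an antiapoptotic BCL2 relative supported by IL-3, at 3133 and 3604. Bcl2 read 284 and 595 and was over 2-fold higher in experiment 2, and Bcl2l1 read 648 and 784.

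Metabolic and growth genes were mostly at the limit, against 38.0% of all genes. The counts were 71 of 72 for the respiratory chain and ATP synthase, 44 of 46 for the proteasome, 19 of 20 for the citrate cycle, 19 of 21 for nucleotide synthesis, 15 of 19 for glycolysis and 16 of 22 for cholesterol and fatty acid synthesis. Of the 20 genes with the highest mean intensity, from 8965 for Rps2 to 10829.6 for Rps29, 16 encoded ribosomal proteins, and the other 4 were Eef1a1, a translation elongation factor, Tpt1, Actb and Lgals1. Among the glycolysis genes, Ldha, lactate dehydrogenase A, read 6235 and 6963 and its paralog Ldhb 109 and 158. Slc2a3, a neuronal and leukocyte glucose transporter, read 4231 and 4639.9. Phgdh, the first enzyme of serine synthesis, read 4568 and 4289, and Asns, asparagine synthetase, 3355 and 3555. Both of these ATF4 targets were alike in the 2 cultures. Scd2, a fatty acid desaturase, read 5023 and 4117 in its brightest probe set, but 806 and 1532 and 136 and 502 in 2 others, both higher in experiment 2. Its relative Scd1 read 2.21 and 6.28.

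Haem is the cofactor of myeloperoxidase, and its synthesis genes were at the limit in 4 of 8 cases (50%, against 38.0% of all genes). The housekeeping first enzyme Alas1 read 437 and 175 and the erythroid form Alas2 1.22 and 1.02. Uros, uroporphyrinogen III synthase, read 456 and 146. All 7 of these genes that could be compared were lower in experiment 2 than the median probe set (55.8% of all genes were), with a median log2 difference of -0.39, against -0.08 over all genes, and between -0.61 and -0.31 under the other 3 scalings. The phagocyte NADPH oxidase feeds hydrogen peroxide to myeloperoxidase. Of its subunits, 5 of 6 (83.3%, against 38.0% of all genes) were at the limit. These were Rac1, Rac2, Cyba, Ncf4 and Ncf1, the last at 507 and 349. Cybb, the catalytic subunit of the oxidase, read 5.36 and 3.53.

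At the surface, Cd47 (5563 and 5364), Cd53 (4380.4 and 5130.2), Cd48 (3324 and 2939) and the leukocyte common antigen Ptprc (3485 and 2497) had the highest readings of 27 antigen and integrin genes. Of the 27, 15 (55.6%) were at the limit, against 38.0% of all genes. The integrin genes Itga6 (1576 and 1261) and Itgb2 (478 and 289.8) were among the 15, and Itgam, which encodes CD11b, was not (111 and 80.8). Among 28 cytokine, growth factor and chemokine genes, 7 (25%) were at the limit, a share below the 38.0% of all genes. Ccl9 read 3439 and 3192, Ltb, lymphotoxin beta, 2792 and 2749, and Tgfb1 1662 and 4377. Interferon-stimulated genes were at the limit in 1 of 15 cases (6.67%, also below the 38.0% of all genes), Bst2 at 329 and 342. Immediate early genes were at the limit in 9 of 20 cases (45%), a share close to the 38.0% of all genes. Jun (7.77 and 11.2) and Nr4a1 (12.1 and 10.2) were near the floor in both cultures.

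The 2 cultures were then compared across genes. Over all 22690 probe sets the 0 h arrays correlated with a Pearson r of 0.978 on log2(intensity + 16) and a Spearman rho of 0.964, as a description across probe sets of 2 arrays that share a platform and a normalization. Pearson's r was 0.912 for the 8354 probe sets with a mean of at least 200, whose range of signal is narrower. Experiment 2 read lower, by a median of 0.22 on the log2 scale over the 12039 probe sets with a mean of at least 50, and differences are given relative to that median. On this scale 72.8% of the 12039 lay within 1.5-fold and 91.3% within 2-fold. The SD of the log2 difference was 0.64 between 50 and 100, 0.67 between 100 and 200, and 0.68 between 200 and 500. Above 500 it narrowed with signal, to 0.59 between 500 and 1000, 0.48 between 1000 and 2000, and 0.19 for the 498 probe sets at 4000 or more.

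With 1 array for each culture the differences had no replicate check and no test, and those of 2-fold or more are described. They comprised 538 probe sets higher in experiment 2 (4.47%) and 504 higher in experiment 1 (4.19%), so that 51.6% of them were higher in experiment 2. That share depended on the scaling, at 22.9% (294 and 991) for the values as deposited, 63.2% (653 and 381) with a common 75th percentile and 56.5% (570 and 439) after quantile normalization. Of the 538, 92.0% were also higher in experiment 2 in all 4 other pairs of arrays (33.2% of all probe sets), and of the 504, 94.2% were again higher in experiment 1 (33.8% of all). The difference reached 2-fold in all 4 other pairs for 15.2% and 18.8%, respectively. These pairs come from the same 2 cultures and show that the arrays repeat, not that another culture would.

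**Figure D3:**
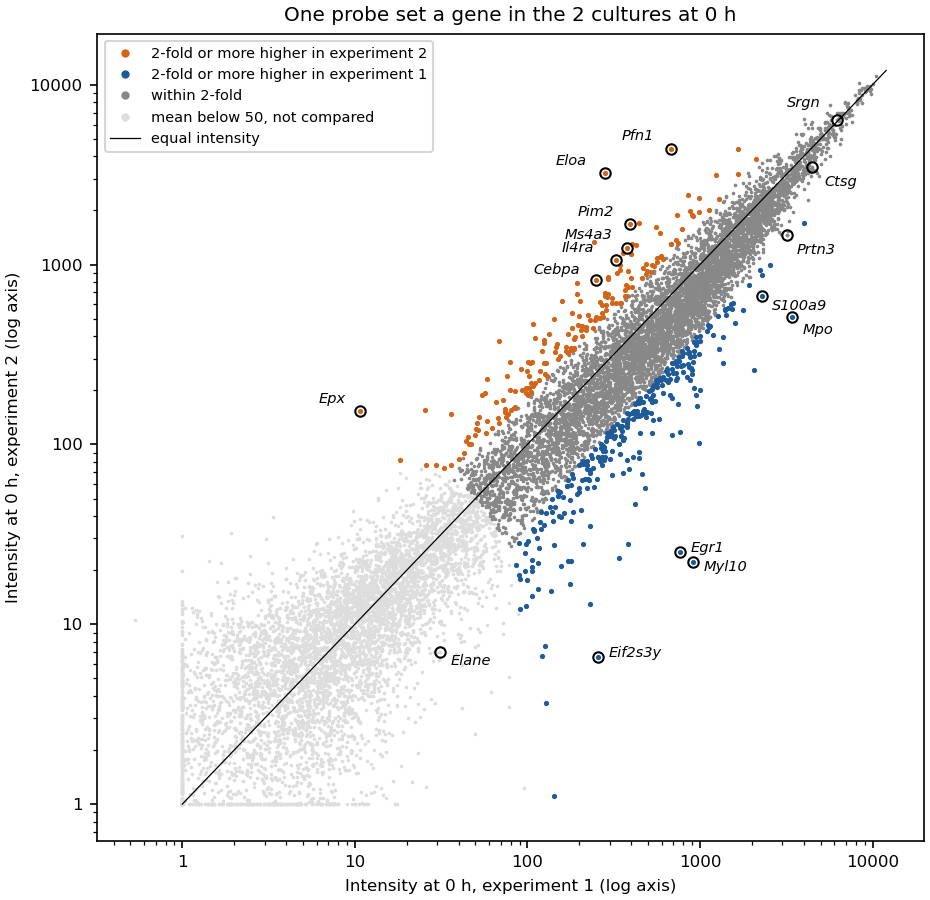
Intensity at 0 h in experiment 1 against experiment 2 (both log axes) for 1 probe set a gene, coloured where the genes were 2-fold or more apart relative to the median. Srgn and Ctsg lie near the line of equal intensity, Mpo, S100a9, Myl10 and Egr1 to the right of it, and Ms4a3, Cebpa, Pim2 and Eloa above it.

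Genes higher in experiment 1 included several granule genes. Taking the brightest probe set of each gene, 290 of 6894 genes (4.21%) were 2-fold or more higher in experiment 1 and 178 (2.58%) in experiment 2. Mpo was 5.61-fold higher in experiment 1, with a log2 difference of -2.49, and between -2.82 and -2.24 in the other 4 pairs. S100a9 (-1.53), S100a8 (-1.51), Ltf (-1.68) and Lyz2 (-1.08) differed in the same direction, and each did so in all 4 other pairs. Ltf (205 and 43.4) passed the filter of a mean of at least 50 only through experiment 1. Cxcr2 (36.0 and 148), counted below, passed it only through experiment 2, so that the filter fixed the direction of both. Prtn3 fell just short of 2-fold, at -0.90. In the list of later granule and neutrophil genes 3 of 11 compared were 2-fold higher in experiment 1 and 1, Cxcr2, in experiment 2, and the median log2 difference was -0.70 (-0.08 over all genes), or between -0.92 and -0.60 under the other 3 scalings. The primary granule list was split, with 4 of 9 genes higher in experiment 1 (2 of them 2-fold or more), 5 higher in experiment 2 (Ms4a3 alone 2-fold or more, at 1.90) and a median of 0.05, whose sign was negative for the values as deposited (-0.17) and after quantile normalization (-0.17).

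Some basophil genes and Epx went the other way. All 6 mast cell and basophil genes that could be compared were higher in experiment 2 relative to the median (44.2% of all genes were), with a median of 0.84, or between 0.62 and 0.94 under the other 3 scalings. Fcer1a was 4.80-fold higher (2.26), Mcpt8 3.37-fold (1.75) and Fcer1g just under 2-fold (0.98). Gata2 (0.12) and Mitf (0.04) hardly differed (Gata2 had that sign in 1 of the other 4 pairs), and Fcer1a passed the filter on low values only through experiment 2. Among genes below that filter, Cma1 (19.5 and 7.04), Tpsb2 (58.0 and 39.2) and Ms4a2 (16.3 and 11.4) read higher in experiment 1. Epx was 7.33-fold higher in experiment 2 (2.87), a size that depended on the pseudocount, with a log2 difference of 3.94 with 1 and 1.72 with 64. It was the 1 eosinophil gene compared and passed the filter only through experiment 2, and Siglecf, an eosinophil lectin below the filter, read 41.3 and 7.94. Fcer1a, Mcpt8, Fcer1g and Epx had the same sign in all 4 other pairs. The factor Cebpa (1.88) and the receptor Il4ra (1.87), for which a second probe set gave 1.82, were also higher there. Whether the cultures held different shares of such cells or more RNA in each was not tested.

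Several immediate early genes differed. Egr1, a growth factor-induced zinc finger factor, was 16.3-fold higher in experiment 1, at 767 and 25.4. Fos (358 and 106), Egr2 (269 and 77.1) and the phosphatase Dusp1 (883 and 266) were also over 2-fold higher there. Ier2 was higher in experiment 2 (877 and 1985), but had that sign in 2 of the other 4 pairs, and Jund, Ier3, Dusp6 and Junb were within 2-fold. Over the 15 genes compared, 4 were 2-fold or more higher in experiment 1 (4.21% of all genes) and 1 in experiment 2 (2.58%). Of the 4, Egr1 passed the filter of a mean of at least 50 only through experiment 1. Counted by sign alone, however, 7 of the 15 were higher in experiment 1 and 8 in experiment 2, and the median was 0.24.

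Among genes with a probe set at a mean of at least 200, the 12 farthest apart in each direction were taken, which leaves out dimmer genes with as large a difference (Eif2s3y, Uty, Kdm5d, Epx and Fcer1a). Of the 12 toward experiment 1, from 4.70-fold to 21.1-fold, all 12 were also 2-fold or more apart in each of the other 4 pairs. Myl10, a myosin light chain, read 917 and 22.1 and headed them. Tgm2, transglutaminase 2, read 928 and 80.9 in the probe set farthest apart, and its 4 other probe sets with a mean of at least 50 were lower in experiment 2 as well, by a median of -2.28. The rest were Egr1, Mpo, Gimap3, an immune-associated GTPase, Bbip1, of the ciliary BBSome complex, Armcx4, the fatty acid receptor Ffar2, the junction protein gene Tjp1, the leukocyte antigen gene Cd52, the glutathione transferase gene Mgst2 and the ubiquitin ligase gene Ttc3. Cd52 read 458 and 68.2, and Ffar2 477 and 56.9. Experiment 2 was the low culture by this choice of genes, with readings from 22.1 to 509. Only Bbip1 and Mpo reached 200 there, so the others passed the filter of 200 only through experiment 1.

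Of the 12 toward experiment 2, from 4.54-fold to 12.7-fold, 8 were 2-fold apart in each of the other 4 pairs. Another probe set with a mean of at least 50 was available for 7 of these 12 genes, but for only 3 of the 12 toward experiment 1. In those 3 (Tgm2, Ffar2 and Ttc3) the other probe sets were all lower in experiment 2 as well, whereas the 7 were mixed. Pim2 (392 and 1673), Dok2, an adaptor that restrains tyrosine kinase signalling (242 and 1327), and Fmnl1, a leukocyte formin (68.8 and 376), have 1 probe set at a mean of at least 50 and repeated in every pair. Eloa, elongin A, read 282 and 3229.6, but was only 0.24 to 0.52 higher in the other pairs, and its other 2 probe sets differed by 0.42 and -0.15. Cebpb read 79.6 and 377 in a dim probe set and 1454 and 1289.6 in its brightest. Selenow and Egln1 showed the same, with brightest probe sets at 2159 and 2312 and 1547 and 1271. Slc2a3 was divided: a second dim probe set read 91.8 and 689, a difference of 2.93 near the 3.02 of the first, while the brighter pair gave 0.35 and 0.23. The other probe sets of Hyou1 were higher in experiment 2 as well (0.79 and 2.28), and those of Canx differed by -0.51 and 1.00. The remaining genes were Pfn1 and St3gal4.

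**Figure D4:**
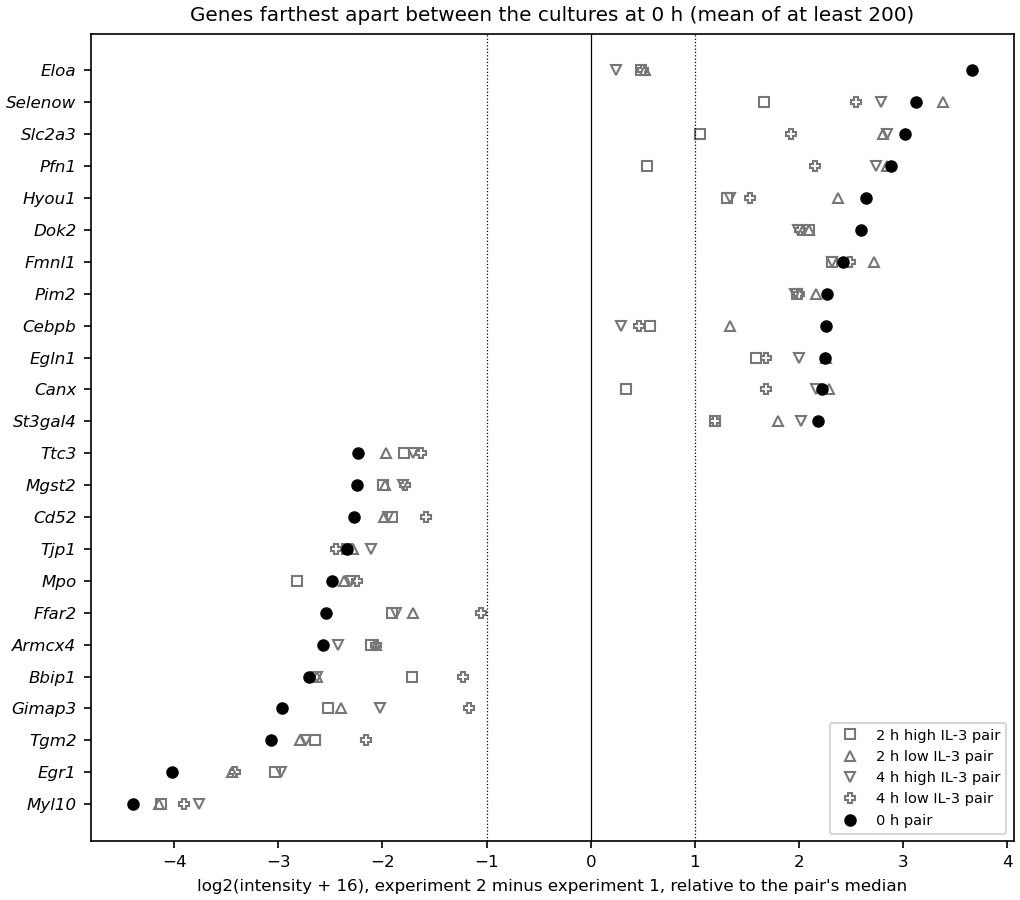
Difference between the cultures on log2(intensity + 16), experiment 2 minus experiment 1, relative to each pair's median, for the 12 genes farthest apart in each direction at 0 h among those with a mean of at least 200 (filled circles) and in the other 4 pairs of arrays (open symbols), with dotted lines at 2-fold. The 12 genes on the left stay beyond 2-fold in all pairs, whereas Eloa falls to between 0.24 and 0.52.

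This disagreement within genes was then counted, a comparison added after the values had been seen, over genes with 2 or more probe sets at a mean of at least 200. Of 220 probe sets 2-fold higher in experiment 2, 66 (30.0%) had another probe set of the gene past 2-fold the same way, and 77 (35.0%) had one with the opposite sign. Of 121 higher in experiment 1, these were 46 (38.0%) and 23 (19.0%). The same shares over all probe sets of such genes were not computed, so these counts have no background to be read against. The 7 probe sets of Ywhaz, a 14-3-3 protein gene used as a reference, ranged from -1.10 to 2.03, its brightest reading 3821 and 4275. In contrast, both probe sets of Shc1 gave a difference close to 2 (1.96 and 1.95) and the 3 of Eif2s3x, a translation initiation factor gene on the X chromosome, were all higher in experiment 2 (0.88 to 1.99). The 5′ to 3′ ratio of the array's control probe sets was 0.768 and 0.903 for Actb, 1.13 in both for Gapdh, and 0.382 and 0.372 for the transferrin receptor. The added bioC control RNA read 816 and 239, while bioB (237 and 225) and bioD (3324 and 3786) were closer. Their part in the differences was not tested.

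Metabolic lists differed little. None of 17 glycolysis genes was 2-fold apart, although 16 of the 17 were higher in experiment 2 (44.2% of all genes) and the median was 0.42, which stayed positive for the values as deposited (0.20) and after quantile normalization (0.19). Ribosomal protein genes had a median of 0.23 and 39 of 44 were higher in experiment 2, but probe sets at 4000 or more had a median of 0.23 as a class, and after quantile normalization the median was 0.0011. Respiratory chain (71 compared), citrate cycle (20) and nucleotide synthesis genes (20) had none 2-fold apart. Of 31 cell cycle genes, Cdk6 alone was 2-fold apart, higher in experiment 2 at 25.8 and 76.7. Cdk6 passed the filter of a mean of at least 50 only through experiment 2, which fixed that direction. In the cholesterol list Dhcr7, the last enzyme of one branch of the pathway, was higher in experiment 1 (360.4 and 106). Slc7a5, a large neutral amino acid transporter, was higher in experiment 2 (981 and 2330.1).

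Of 20 surface antigen and integrin genes compared, 3 were 2-fold or more higher in experiment 2 and 1 in experiment 1. Of 14 cytokine, growth factor and chemokine genes compared, these counts were 1 and 0. Over all genes compared, 2.58% were 2-fold or more higher in experiment 2 and 4.21% in experiment 1. The fibronectin receptor chains Itga5 (79.1 and 288) and Itgb1 (206 and 434), Cd37 (378 and 672) and Tgfb1 were higher in experiment 2, and Cd52 in experiment 1. Among other genes, the apoptosis gene Bcl2 was higher in experiment 2. The haem-regulated repressor gene Bach1 (871 and 228) and the megakaryocyte gene Pf4 were higher in experiment 1. A second probe set of Bach1 differed by 0.14. Of the interferon-stimulated genes, Oas1a (156 and 39.6) and Ifit2 (139 and 42.1) were higher in experiment 1. Both passed the filter of a mean of at least 50 only through experiment 1, which fixed their direction.

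The difference was also summarised by chromosome. The median of the 358 probe sets on chromosome 16 was -0.18 relative to all probe sets, the lowest of the 19 autosomes, and lay between -0.19 and -0.15 over the 5 pairs. Chromosome 13 followed at -0.14, and the highest autosome was chromosome 7 at 0.04. On chromosome 16, 60.6% of probe sets were higher in experiment 1, much as on chromosome 13 (60.7%), and 7.26% were 2-fold higher there, against 4.03% on chromosome 13 and 4.19% of all. Of 13 probe sets for 8 genes of the Y chromosome, 3 had a mean of at least 50 at 0 h, and these passed that filter only through experiment 1, so that their direction was fixed by it. Eif2s3y, a Y-linked translation initiation factor gene, read 258 and 6.62, Kdm5d, a histone demethylase gene, 126 and 7.53, and Uty, a relative of a histone demethylase, 142 and 1.10. Over all 5 arrays of each experiment, Eif2s3y read 258 to 474 in experiment 1 and 3.46 to 13.7 in experiment 2. The ranges were 109.8 to 127 and 2.99 to 7.94 for Kdm5d, and 30.2 to 142 and 1.10 to 4.07 for Uty. The 5 arrays of an experiment come from 1 culture. Other, dimmer probe sets had ranges that overlapped. A second one for Uty read 26.6 to 70.3 in experiment 1 and 34.9 to 58.5 in experiment 2. Another for Kdm5d read 24.7 to 51.7 and 9.75 to 24.7. Xist, the RNA that silences an X chromosome, read 22.6 and 21.6. The sample titles name 32D cells in both experiments, and the study's text names 32Dcl3. Other labels name the line 32D in experiment 1 and 32Dcl3 in experiment 2. Whether the cultures were sublines was not tested.

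**Figure D5:**
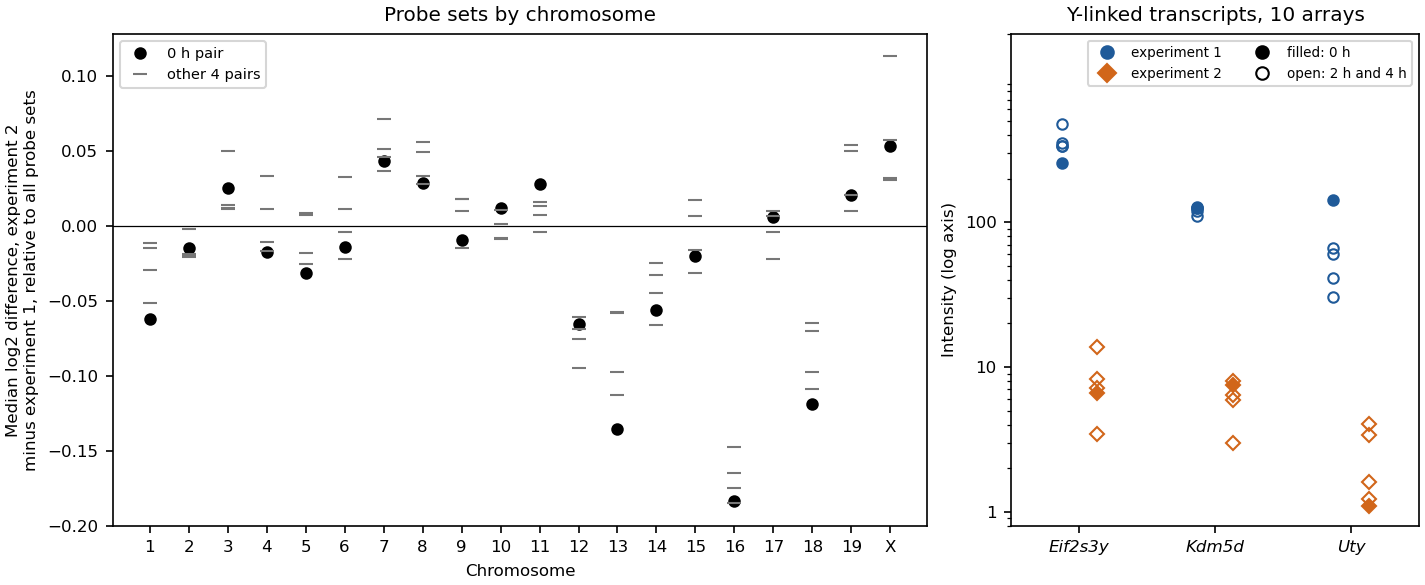
Left, the median log2 difference (experiment 2 minus experiment 1, relative to all probe sets) for each autosome and the X chromosome at 0 h (circles) and in the other 4 pairs (dashes). Right, intensity (log axis) of the 3 Y-linked probe sets with a mean of at least 50 in all 10 arrays, filled at 0 h. Chromosome 16 is lowest at -0.18, and the 3 Y-linked probe sets shown passed the filter of 50 only through experiment 1.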

How the data were processed

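Total RNA of the 10 samples was labelled with biotin and hybridized to Affymetrix mouse 430A 2.0 arrays. The table deposited by the authors holds linear intensity values of 22690 probe sets, and the authors normalized the 10 arrays together in dChip at its default settings, in 1 batch. No dChip version was given in the sources used here, and no detection calls were used. Model-based normalization rests on ranks that change little between arrays and can compress differences in brightness between them, and the lowest values stand at a floor of 1 (552 and 461 probe sets at 0 h).

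Of the probe sets, 20393 name 1 gene in the platform annotation, 691 several and 1606 none, and only the first were used for names, 20364 of them updated through the RefSeq gene table (GRCm38.p6). This gave 12394 genes, each represented by the probe set with the highest mean at 0 h. Differences between the cultures were log2(intensity + 16), experiment 2 minus experiment 1, relative to the median over probe sets with a mean at 0 h of at least 50, and this difference understates the fold of dim probe sets. The alternatives were pseudocounts of 1 and 64, limits of 100 and 500 or the 95th percentile of genes of other tissues, the median probe set of a gene, scaling to a common 75th percentile, quantile normalization, other filters and a 1.5-fold threshold. No test was run, since each culture has 1 array at 0 h, and the number of arrays limits the precision. The other 4 pairs of arrays were treated in the same way.

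The genes named were drawn from a rule that covered the 4 markers, the 8 Northern blot transcripts, the IL-3 receptor chains and the 20 brightest genes. It also covered up to 6 highest and 3 lowest members of each list, members 2-fold apart and members of lists of up to 15 genes. The last group was the 12 genes farthest apart in each direction at a mean of at least 200. Not every gene covered by the rule is named in the text. Other genes named were chosen after their values were seen. The 38 lists were written from general knowledge, and members and lists were chosen with earlier results of these data known. Listed genes without a probe set of their own were not analysed here. The steps were tested on simulated data. Python 3.11.15, numpy 2.4.6 and pandas 2.3.3 were used.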

Additional observations from a re-analysis of the deposited data

How the results depend on the processing

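The correlation of the cultures was 0.94 over probe sets with a mean of at least 50 and 0.91 at 200 or more. With a limit of 500, 2938 genes passed, and leaving out experiment 1 or 2 gave 4849 to 5283. For probe sets 2-fold apart, the counts higher in experiment 2 and in experiment 1 were 333 and 232 with a pseudocount of 64, 338 and 283 at a mean of at least 200, 294 and 991 for values as deposited and 1566 and 1711 at 1.5-fold; without a filter, 882 were higher in experiment 1. The median of chromosome 16 was -0.22 at a mean of at least 200 and -0.15 after quantile normalization; the Y-linked probe sets have no value at 200. Of the list counts, 30 of 38 stayed within 1.5 times with a limit of 500 and 35 of 38 with 100. The differences of 32 genes were recomputed under 7 settings. None of the 224 values changed sign, but most of these genes had been chosen for a large difference, which largely fixed that outcome. Of the 224, 17 moved by 0.5 or more, all with a pseudocount of 1 or 64, among them Myl10 (-5.08 and -3.32) and Egr1 (-4.63 and -3.03). Each culture has 1 array, so that the spread between cultures rests on 2 values, and no setting addresses probes that read a transcript poorly.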

Other observations

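A few genes of other tissues stood out from their list, whose median of the mean intensities was 8.26 and whose 95th percentile was 79.8. Afp, which encodes the fetal serum protein alpha-fetoprotein, read 3771 and 3390.3 and was the 1 member at the limit. Cela1, a pancreatic elastase gene, read 425 and 184, and Sftpb, surfactant protein B, 93.5 and 201. The first of these was alike in the cultures, and the others differed in opposite directions.

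Outside the ribosomal proteins and translation factors, the highest mean intensities included Ifitm3 (7899.7 and 8785) and Ifitm1 (8302 and 8179), interferon-inducible membrane proteins, although 14 of the 15 listed interferon-stimulated genes were below the limit in at least 1 culture. F2r, the thrombin receptor, read 6581 and 6922. Xbp1, a factor of the unfolded protein response, read 7560.0 and 6175. These were named after their values were seen, and the cultures were alike for all 4.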
